A study of Mus musculus with 6 samples.

Results

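The 10 genes of the cardiac thick filament followed here in mouse hearts were the heavy chains Myh6, Myh7 and Myh7b, the light chains Myl2, Myl3, Myl4 and Myl7, the myosin-binding proteins Mybpc3 and Mybphl, and the light chain kinase Mylk3. They were chosen by name, as transcript clusters annotated to 1 of these genes. All 10 of 10 were found, each on 1 cluster of its own, among 19938 genes measured on single-gene clusters. The hearts came from C57BL/6J mice at postnatal day 14, treated for 1 week with ETX (3 hearts, replicates 6, 7 and 10) or with the vehicle PBS (3 hearts, replicates 3, 9 and 12). The labels do not spell out ETX and give neither dose nor sex, and they call the hearts biological replicates. Each heart was hybridised to 1 Affymetrix whole-transcript array, and this number of arrays limits the precision. Values are deposited log2 signals. They are compared for 1 gene between hearts and never between genes, because each probe set has its own response.

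Myosin is the motor of the heartbeat. Each molecule joins a pair of heavy chains, which split ATP and pull on actin, with essential and regulatory light chains that stiffen the lever arm and tune force. The chambers use different chains: Myl7 and Myl4 are the regulatory and essential light chains of the atria, and Myl2 and Myl3 are their ventricular counterparts. In the mouse the ventricle turns around birth from Myh7, the slower beta heavy chain, to Myh6, the faster alpha heavy chain, and Myh7 returns under load or lack of thyroid hormone. Mybpc3 links the thick filament to titin and actin and restrains the myosin heads. Mybphl is a shorter relative found in the atria and the conduction system, and Mylk3 phosphorylates Myl2.

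None of the members passed the test between ETX and PBS hearts. The 3 atrial transcripts Myl7, Myl4 and Mybphl differed most from heart to heart, by 2.64-fold to 6.89-fold within a group, and lay high in the same 3 hearts, ETX replicates 6 and 7 and PBS replicate 3. The ventricular and heavy chains lay within 0.21 on the log2 scale over all 6 hearts. Mybpc3 was higher in each ETX heart than in any PBS heart, 1.23-fold on average, without passing. Of 14953 genes tested with limma, 3.56% passed a Benjamini-Hochberg adjusted p of 0.05 (1.14% higher and 2.43% lower in ETX), against 0 of 10 members. At an unadjusted p under 0.05, 1 member (Mybpc3) was counted, against 21.9% of all tested genes. Values of ETX and PBS hearts did not overlap for 4 of the 10 members (1 higher and 3 lower in ETX), against 27.7% of all tested genes (11.6% higher and 16.1% lower). The median log2 difference was 0.035 over the members and -0.0064 over all tested genes.

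The sequences before the start sites of the 3 transcripts that moved together, and of the ventricular chain Myl3 as the counterpart of Myl4, are shown because they are the regulatory stretch nearest to each gene. Each is the 250 bases before a RefSeq start, 5′ to 3′ on the gene's strand, in build GRCm38.p6. Capitals mark a CArG box, the element bound by serum response factor.
Myl7 (chr11:5898783-5899032, minus strand): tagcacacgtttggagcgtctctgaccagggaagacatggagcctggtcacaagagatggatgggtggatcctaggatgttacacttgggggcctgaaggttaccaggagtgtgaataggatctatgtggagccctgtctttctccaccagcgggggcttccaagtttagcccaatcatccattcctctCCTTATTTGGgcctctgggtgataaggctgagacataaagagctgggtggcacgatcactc
Myl4 (chr11:104550413-104550662, plus strand): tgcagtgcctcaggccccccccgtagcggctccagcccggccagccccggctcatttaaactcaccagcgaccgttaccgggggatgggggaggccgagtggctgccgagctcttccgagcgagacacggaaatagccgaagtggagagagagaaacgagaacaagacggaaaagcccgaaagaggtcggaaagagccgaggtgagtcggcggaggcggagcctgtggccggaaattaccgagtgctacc
Mybphl (chr3:108364661-108364910, plus strand): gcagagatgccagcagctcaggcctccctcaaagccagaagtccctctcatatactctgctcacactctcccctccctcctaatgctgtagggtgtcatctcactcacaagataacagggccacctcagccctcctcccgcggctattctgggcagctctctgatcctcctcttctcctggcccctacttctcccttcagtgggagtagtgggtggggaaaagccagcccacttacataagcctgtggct
Myl3 (chr9:110763428-110763677, plus strand): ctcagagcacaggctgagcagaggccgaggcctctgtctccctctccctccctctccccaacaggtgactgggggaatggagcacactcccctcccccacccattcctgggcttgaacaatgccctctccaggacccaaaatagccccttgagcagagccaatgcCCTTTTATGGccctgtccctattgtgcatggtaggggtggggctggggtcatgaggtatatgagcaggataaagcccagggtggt
A script searched 7 motifs on both strands in these windows: the TATA box TATAAA, the MEF2 site, the CArG box, the MCAT element CATTCC, the nuclear receptor element AGGTCA, the GATA site AGATAA and the E box CANNTG. No motif was found in all 3 atrial windows. Myl7 held the CArG box CCTTATTTGG, beginning 61 bases before the start, and CATTCC, beginning 70 bases before it. These 2 matches do not overlap. Myl3 held another CArG box, CCTTTTATGG, 85 bases before its start, and 2 copies of CATTCC. Both windows also held an E box. The Mybphl window held AGATAA at 141 bases before its start and none of the other motifs, and the Myl4 window held none of the 7. Of 32851 mouse promoter windows of the same length, 1.47% held a CArG box, 12.6% CATTCC, 9.99% AGATAA and 66.2% an E box. A match is a description of letters and not evidence of binding.

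The regulatory light chain of the atria, Myl7, had log2 signals of 9.03, 8.84 and 6.24 in ETX replicates 6, 7 and 10, against 8.46, 5.89 and 6.22 in PBS replicates 3, 9 and 12. Both groups held high and low hearts, and the groups overlapped. The mean was 8.04 ± 1.56 in ETX and 6.86 ± 1.40 in PBS (SD, n = 3 each), a log2 difference of 1.18 with a 95% interval of -0.78 to 3.14 (limma adjusted p = 0.464). The interval spans folds of 0.584 to 8.80, so the data bound the change of Myl7 only loosely in either direction. Because limma also draws on the variances of all tested genes, the interval is narrower than the spread of Myl7 alone would give. Without ETX replicate 10 the difference was 2.08, and without ETX replicate 6 it was 0.69, and neither passed (limma adjusted p = 0.174 and 0.747). It was also moved by over 1.5 times without ETX replicate 7 (0.78), PBS replicate 3 (1.98) or PBS replicate 9 (0.70).

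The essential light chain Myl4, which the embryonic ventricle also uses, split the hearts in the same way. It lay at 9.98, 9.97 and 7.57 in ETX replicates 6, 7 and 10 and at 9.96, 7.32 and 7.74 in PBS replicates 3, 9 and 12. The ETX heart among the low ones lay between both low PBS hearts. The mean difference was 0.83 (95% interval -1.02 to 2.69, limma adjusted p = 0.596). It ran from 0.33 without PBS replicate 9 to 1.64 without ETX replicate 10 or without PBS replicate 3, with values of 0.43, 0.44 and 0.53 without ETX replicate 6, ETX replicate 7 or PBS replicate 12, and passed in none of these fits.

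Mybphl, the atrial relative of the binding proteins, was at 6.33, 6.55 and 4.83 in the ETX hearts and at 6.24, 4.88 and 4.84 in the PBS hearts, in the same order of replicates. Again ETX replicates 6 and 7 and PBS replicate 3 were high. The difference was 0.58 (95% interval -0.57 to 1.74, limma adjusted p = 0.549). Leaving out ETX replicate 7 gave 0.26 and leaving out ETX replicate 10 gave 1.12 (1.04 without PBS replicate 3, and 0.34 to 0.37 without each remaining heart), and Mybphl passed in none of these fits. The SD within groups was 1.48 for Myl7, 1.40 for Myl4 and 0.87 for Mybphl, each larger than that of at least 99.6% of tested genes, whose median was 0.10.

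**Figure D1:**
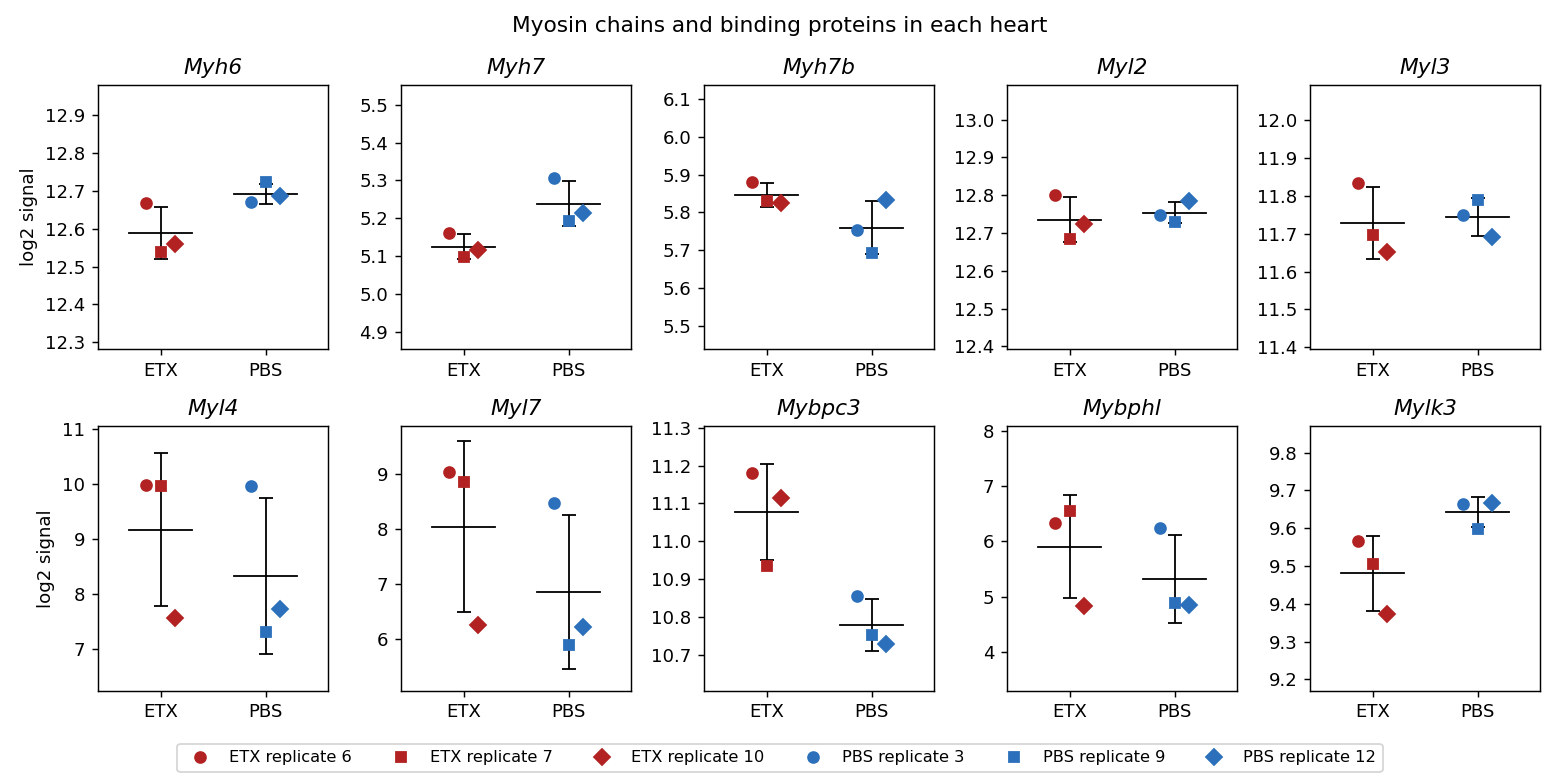
Log2 signal (vertical axes) of each of the 10 members in 3 ETX hearts (red, left) and 3 PBS hearts (blue, right), with marker shapes for replicates, a line at the group mean and a bar of 1 SD. Panels of Myl4, Myl7 and Mybphl have a wider axis range than the others; in them 2 ETX hearts and 1 PBS heart are high, and in the panel of Mybpc3 all ETX hearts lie above all PBS hearts.

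Other atrial transcripts were set beside these, as the labels name whole hearts and do not say how atria were treated at dissection. In bulk tissue fewer cells of a type and less RNA per cell cannot be told apart. Sarcolipin (Sln), which slows the calcium pump in atrial muscle, was at 4.88, 5.11 and 3.68 in ETX replicates 6, 7 and 10, against 5.12, 3.50 and 3.63 in PBS replicates 3, 9 and 12. It was high in the same 3 hearts. Bmp10, a growth factor of right atrial muscle, lay between 2.55 and 2.94 in the 3 ETX hearts, against 7.71 in PBS replicate 3 and 2.60 and 2.64 in PBS replicates 9 and 12. Among the 3 hearts high in Myl7, Myl4 and Mybphl, it was thus high in 1.

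Nppa, the atrial natriuretic peptide gene, which stressed ventricle also makes, followed another order. Its values were 12.12, 12.48 and 11.89 in ETX replicates 6, 7 and 10, against 12.05, 9.28 and 9.04 in PBS replicates 3, 9 and 12. ETX replicate 10 was high in Nppa, near the hearts rich in atrial light chains, while its Myl7, Myl4 and Mybphl were near the low PBS hearts. The log2 difference of Nppa was 2.04 (limma adjusted p = 0.14). It was 3.0 without PBS replicate 3, where it passed (0.00328), and 1.5 without PBS replicate 12. Its alternatives spanned adjusted p-values of 0.00328 to 0.321. The part of atrial tissue in this difference was not tested.

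The atrial list held 16 genes outside the members, of which 15 were measured and tested. One, the amidating enzyme Pam, rose 1.53-fold in ETX (limma adjusted p = 0.0341), and 0 fell. Over all tested genes 1.14% were called higher and 2.43% lower. Pam was at 10.36 to 10.56 in ETX and at 9.68 to 10.11 in PBS, and it passed in 1 of the 6 fits without 1 heart (largest adjusted p 0.12). Of the 15, 8 lay above 0 and 7 below, with a median log2 difference of 0.026. Several channel and junction genes of the list, named after their values were seen, ran lower in ETX without passing. Kcna5, an atrial potassium channel, was at 5.92, 5.87 and 6.45 in ETX replicates 6, 7 and 10, against 6.44, 6.85 and 7.19 in PBS replicates 3, 9 and 12 (difference -0.75, limma adjusted p = 0.0914), so its order of hearts was not that of Myl7. Kcnj5 (-0.32, 0.106) and the connexin Gja5 (-0.23, 0.116) were lower in every ETX heart than in any PBS heart, and Kcnj3 differed by -0.30 (0.262). Of the 15 genes, 2 were lower and 1 higher in every ETX heart, against 16.1% and 11.6% of all tested genes. The list's mean log2 signal was 6.88, 6.86 and 6.47 in ETX replicates 6, 7 and 10, against 7.30, 6.31 and 6.42 in PBS replicates 3, 9 and 12. The log2 of its summed signal ran from 12.6 to 13.1 in ETX and from 11.4 to 12.9 in PBS. That sum is carried largely by the brightest clusters, Nppa and Pam, and does not measure atrial content. With the list's mean as a covariate the differences were 0.97 for Myl7, 0.63 for Myl4 and 0.46 for Mybphl (limma adjusted p = 0.226, 0.328 and 0.36). That mean is raised in PBS replicate 3 by Bmp10 (7.71 there, against 2.55 to 2.94 in the other hearts). It also holds genes such as Kcna5 that do not follow Myl7. These differences are therefore not corrected for the amount of atrial tissue.

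**Figure D2:**
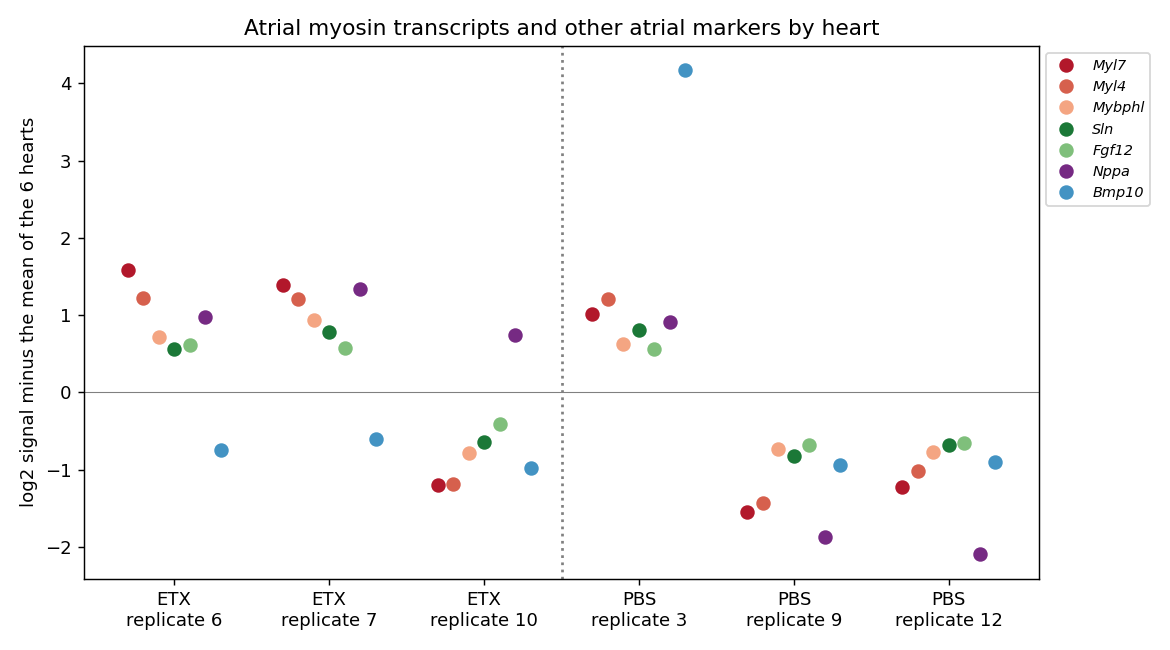
Log2 signal minus the mean of the 6 hearts (vertical axis) for Myl7, Myl4, Mybphl and the atrial markers Sln, Fgf12, Nppa and Bmp10, 1 point per gene and heart, ETX hearts left of the dotted line. ETX replicates 6 and 7 and PBS replicate 3 are above 0 for all genes but Bmp10, which is above 0 in PBS replicate 3 and no other heart; ETX replicate 10 is above 0 for Nppa and no other gene drawn.

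Among 382 tested genes outside the members that spanned at least 1 on the log2 scale, those most like Myl7 over the 6 hearts were Fgf12 (Pearson 0.989), Sln (0.976), Sbk3 (0.949), Tmem163 (0.948) and Stard10 (0.896). Fgf12, Sln and Stard10 stand on the atrial list. The hearts form 2 clusters for Myl7, so these coefficients mostly record which 3 hearts were high, and they are a description. Fgf12, a modulator of sodium channels, lay at 4.83 and 4.78 in ETX replicates 6 and 7 and at 3.79 in ETX replicate 10, against 4.77 in PBS replicate 3 and 3.52 and 3.56 in PBS replicates 9 and 12.

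The ventricular regulatory light chain Myl2 was at 12.80, 12.68 and 12.72 in ETX replicates 6, 7 and 10, against 12.75, 12.73 and 12.78 in PBS replicates 3, 9 and 12. The groups overlapped, and the difference was -0.018 (95% interval -0.17 to 0.13, limma adjusted p = 0.902), or folds of 0.891 to 1.09. Its direction turned without ETX replicate 7 (0.0078). Its SD within groups was 0.046, smaller than that of most tested genes: 7.50% of them had a smaller one. The signal of Myl2, like that of Myh6, stands within 1 log2 unit of the highest signals on the arrays (13.5 to 13.6), a range in which arrays compress differences.

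The ventricular essential light chain Myl3 was at 11.84, 11.70 and 11.65 in the ETX hearts and at 11.75, 11.79 and 11.69 in the PBS hearts. The groups overlapped here too, and ETX replicate 6 was the highest heart. The difference was -0.016 (95% interval -0.18 to 0.15, limma adjusted p = 0.928), and its sign changed in 6 of 16 alternatives. The interval holds folds from 0.88 to 1.11.

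Each atrial chain was then set against its ventricular counterpart within the same heart, as a difference of log2 signals. Such a difference is no ratio of RNA amounts, and only its change between hearts is read. Myl7 minus Myl2 was -3.77, -3.84 and -6.48 in ETX replicates 6, 7 and 10, against -4.29, -6.84 and -6.56 in PBS replicates 3, 9 and 12. The mean was 1.2 higher in ETX. An exact two-sided permutation test over hearts gave p = 0.2, where 0.1 is the smallest it can give with 3 hearts against 3, and p = 0.6 when adjusted over the 3 pairs compared. Without 1 heart the difference ran from 0.73 to 2.09, and every heart except PBS replicate 12 (0.87) moved it by over 1.5 times.

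Myl4 minus Myl3 was -1.85, -1.73 and -4.09 in the ETX hearts and -1.79, -4.47 and -3.95 in the PBS hearts. The heart lowest in this measure was PBS replicate 9, and the ETX and PBS values interleaved. The mean was 0.85 higher in ETX (exact permutation p = 0.6, adjusted p = 0.9). It ran from 0.32 without PBS replicate 9 to 1.66 without PBS replicate 3, and was 1.61 without ETX replicate 10, 0.43 without ETX replicate 7 and 0.50 without ETX replicate 6.

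**Figure D3:**
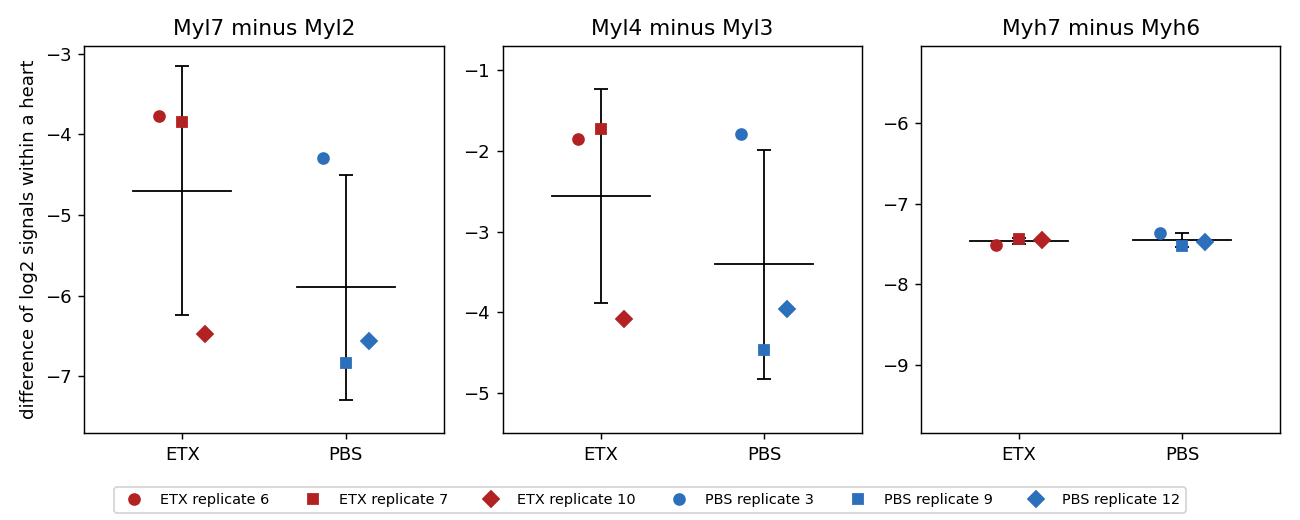
Difference of log2 signals within a heart (vertical axis, equal span in the 3 panels) for Myl7 minus Myl2, Myl4 minus Myl3 and Myh7 minus Myh6, ETX hearts left and PBS hearts right, with group means and 1 SD. The light chain pairs spread over 3.07 and 2.74 log2 units, and the heavy chain pair stays between -7.53 and -7.36.

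The alpha heavy chain Myh6 was at 12.67, 12.54 and 12.56 in ETX replicates 6, 7 and 10, against 12.67, 12.72 and 12.69 in PBS replicates 3, 9 and 12. The ETX values lay below the PBS values, by 0.0024 between the nearest hearts. The difference was -0.10 (95% interval -0.26 to 0.05, limma adjusted p = 0.402). The beta heavy chain Myh7 was at 5.16, 5.10 and 5.12 in the ETX hearts and at 5.31, 5.19 and 5.21 in the PBS hearts. Its values also lay lower in ETX without overlap, with a difference of -0.11 (95% interval -0.26 to 0.04, limma adjusted p = 0.351). The upper bound of the interval is a 1.02-fold higher Myh7 in ETX, and that of Myh6 is 1.03-fold.

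The heavy chain pair spread least of the 3 pairs. Its Myh7 signals stood little above the array medians of 4.43 to 4.51. Its Myh6 signals stood near the top of the range, where arrays compress differences. A small spread of these signals does not show an equally small spread of RNA. Myh7 minus Myh6 was -7.51, -7.44 and -7.45 in ETX replicates 6, 7 and 10, against -7.36, -7.53 and -7.47 in PBS replicates 3, 9 and 12. The means differed by -0.0098 (exact permutation p = 1, adjusted p = 1), and the sign turned without ETX replicate 6 (0.012) or PBS replicate 3 (0.036). Myh6 and Myh7 have closely related sequences, and whether probes of one read the other was not tested.

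Myh7b, an ancient slow heavy chain whose transcript hosts miR-499, was at 5.88, 5.83 and 5.83 in the ETX hearts, against 5.75, 5.69 and 5.83 in the PBS hearts. PBS replicate 12 lay inside the ETX values. The difference was 0.086 (95% interval -0.07 to 0.24, limma adjusted p = 0.496). The precursor clusters of the intronic microRNAs read low: Mir208a, hosted by Myh6, was at 3.33 to 3.84 in ETX and 3.21 to 3.69 in PBS and did not pass (limma adjusted p = 0.725). Mir499 was at 2.53 to 3.0 in ETX and 2.42 to 2.60 in PBS, under the limit of 3.45 below which genes were not tested. Mir208b was not matched.

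Mybpc3, cardiac myosin-binding protein C, was the member with the smallest p. It was at 11.18, 10.93 and 11.12 in ETX replicates 6, 7 and 10, against 10.86, 10.75 and 10.73 in PBS replicates 3, 9 and 12. Every ETX heart was above every PBS heart, with a gap of 0.08 between the nearest. The mean was 11.08 ± 0.13 in ETX and 10.78 ± 0.07 in PBS (SD, n = 3 each), and the difference was 0.30 (SE 0.083, 95% interval 0.11 to 0.49, 1.08-fold to 1.40-fold, limma adjusted p = 0.0913). It passed when limma's variance prior followed the signal level and was made robust to outliers (adjusted p = 0.0352), and in none of the other 15 alternatives (0.0538 to 0.231). The difference lay between 0.25 and 0.37 without 1 heart.

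Mylk3, the kinase that phosphorylates Myl2, was at 9.57, 9.50 and 9.37 in the ETX hearts, against 9.66, 9.60 and 9.67 in the PBS hearts. Its ETX values were all lower than its PBS values. The difference was -0.16 (95% interval -0.33 to 0.006, limma adjusted p = 0.244), and it passed in none of 16 alternatives (0.169 to 0.473).

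**Figure D4:**
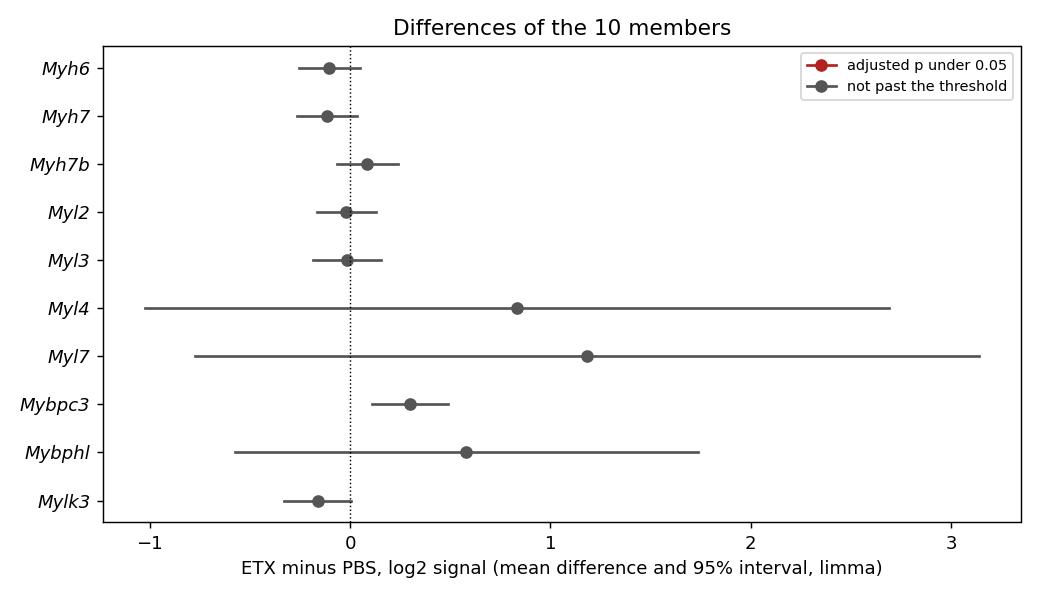
Mean difference ETX minus PBS (horizontal axis, log2 signal) with its 95% interval from limma for the 10 members. The intervals of Myl4, Myl7 and Mybphl span 2.3 to 3.9 log2 units and those of the others at most 0.38; the interval of Mybpc3 lies above 0 and all others include 0, and no member passes the adjusted threshold.

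Around the thick filament, 28 partners and regulators of a list of 33 were measured. Of these 1 was called, against 3.56% of all tested genes. Smyd1, a methyltransferase of muscle that takes part in thick filament assembly, rose 1.33-fold (9.59, 9.49 and 9.63 in ETX, against 9.18, 9.01 and 9.30 in PBS, limma adjusted p = 0.0485). It lay higher in each ETX heart. Its difference was 0.41, and 0.33 to 0.48 without 1 heart, where it passed in no fit (0.056 to 0.125). With a covariate for atrial markers it was 0.41 (0.0768), and with one for lung markers 0.27 (0.211). The list's median was -0.041, with 10 genes above 0 and 18 below.

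Mylk4, a kinase of the same family as Mylk3, was the second gene by likeness to Myh7 (Pearson 0.949 over 6 hearts, after Cmtm5 with 0.966), although Myh7 itself spanned 0.21. Mylk4 was at 6.65, 5.74 and 5.94 in ETX replicates 6, 7 and 10, against 7.46, 6.84 and 7.19 in PBS replicates 3, 9 and 12. The groups did not overlap, with a difference of -1.05 (95% interval -1.60 to -0.50, limma adjusted p = 0.055). Mylk4 passed in 4 alternatives, 1 of them a fit without 1 heart, ETX replicate 6 (-1.32, limma adjusted p = 0.0304). The largest adjusted p without 1 heart was 0.165. The genes next in likeness to Myh7 were Hamp, Cbr2 and Cabcoco1. Myh7 and Mylk4 were both lower in every ETX heart than in any PBS heart, so their coefficient partly records the groups. These coefficients, picked as the highest among 382 genes, are a description.

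Of 30 transcriptional regulators of cardiac myosin genes, 3 fell and 0 rose in ETX, and the list's median was -0.045. Over all tested genes 2.43% were called lower and 1.14% higher. Hopx, a cardiac partner of serum response factor, was 1.45-fold lower (7.69, 7.81 and 7.61 in ETX, against 8.25, 8.29 and 8.20 in PBS, limma adjusted p = 0.014). Thrb, the beta thyroid hormone receptor, was 1.36-fold lower (5.48, 5.34 and 5.34 in ETX, against 5.84, 5.77 and 5.87 in PBS, 0.0251). Med13, a Mediator subunit that miR-208a targets in the mouse heart, was 1.29-fold lower (7.78, 7.75 and 7.79 in ETX, against 8.12, 8.22 and 8.09 in PBS, 0.0315). In each of the 3, all ETX hearts were below all PBS hearts, which adds no support because the 3 were picked by their calls. Of the 30 regulators, 7 were lower and 2 higher in every ETX heart, against 16.1% and 11.6% of all tested genes. Thra, the alpha receptor through which thyroid hormone raises Myh6 in the mouse, differed by -0.22 (95% interval -0.42 to -0.03) and did not pass (limma adjusted p = 0.183).

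Fits without 1 heart changed several of these calls. Hopx passed in 5 of the 6 fits without 1 heart, with an adjusted p of 0.0562 without PBS replicate 3. Thrb passed in 2, without ETX replicate 6 or PBS replicate 9, and reached 0.0972 in the others. Med13 passed in 0 of them (0.0573 to 0.114). With the mean of the lung markers as a covariate, which takes a degree of freedom, the difference of Hopx was -0.50 against -0.54 without it, that of Thrb -0.49 against -0.44 and that of Med13 -0.31 against -0.37 (limma adjusted p = 0.0867, 0.0793 and 0.15).

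**Figure D5:**
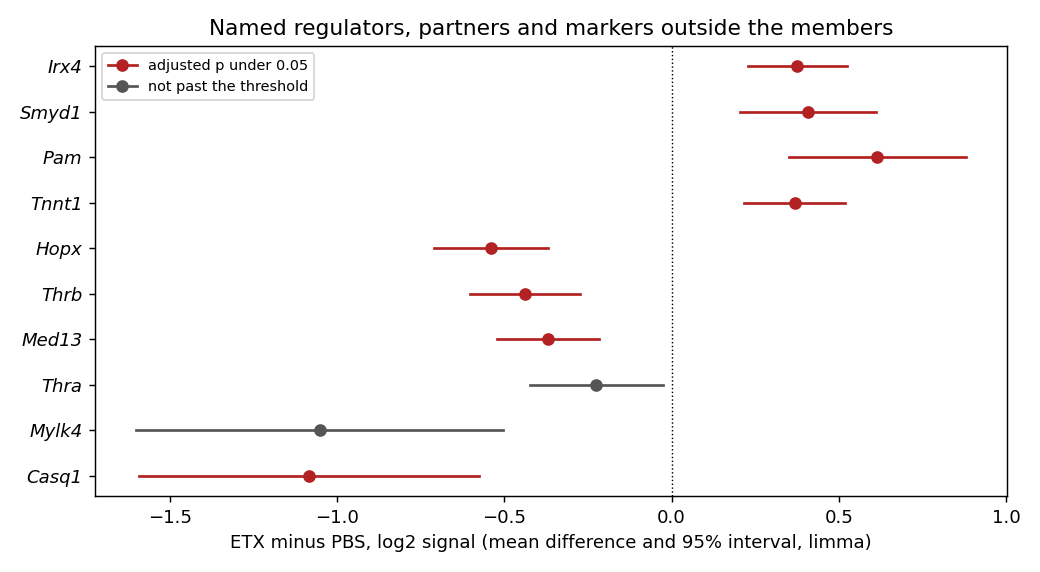
Mean difference ETX minus PBS (horizontal axis, log2 signal) with its 95% interval from limma for 10 genes outside the members, in red where the adjusted p is under 0.05 over all 14953 genes tested. Irx4, Smyd1, Pam and Tnnt1 lie above 0, Hopx, Thrb, Med13 and Casq1 below 0, and Thra and Mylk4 below 0 without passing.

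Markers of the ventricle and of other cell types were read in the same fit. In it 1.14% of all tested genes were called higher and 2.43% lower in ETX. Irx4, a transcription factor of ventricular muscle, rose 1.30-fold (7.54 to 7.61 in ETX, 7.14 to 7.24 in PBS, limma adjusted p = 0.0279), the 1 call among 8 ventricular markers, and passed in 0 of the 6 fits without 1 heart (0.0618 to 0.105). Hey2, a ventricular repressor, was at 5.88 to 5.96 in ETX and 4.95 to 5.84 in PBS and did not pass (0.212). Of 22 sarcomere and calcium-handling genes of cardiomyocytes 0 were called, with a median of -0.053: Actc1 differed by -0.01, Tnni3 by -0.23 and Actn2 by 0.21, and desmin (Des) by 0.33 and Myom2 by -0.50 (limma adjusted p = 0.0555 and 0.0601). Of 17 tested skeletal muscle genes the slow troponin Tnnt1 rose 1.29-fold (0.0318) and the calcium store protein Casq1 was 2.12-fold lower (0.0419). Mylpf and Myh4, which define fast skeletal fibres, lay at 3.82 to 3.96 and 3.38 to 3.46 in ETX. In PBS they lay at 3.82 to 3.90 and 3.28 to 3.61. Of the 17 genes, 3 were higher and 3 lower in every ETX heart, against 11.6% and 16.1% of all tested genes. Among these were Tnni1 (0.87), Tnni2 (-0.22) and Mybpc2 (-0.26), which did not pass (limma adjusted p = 0.125, 0.188 and 0.151). The part of skeletal muscle in these differences was not tested. Tnnt1 passed in 0 and Casq1 in 1 of the 6 fits without 1 heart.

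Smooth muscle markers (11) and nonmuscle myosin genes (8) had 0 calls, with Acta2 at -0.26, Myh9 at -0.38 and Myl12a at -0.24 (limma adjusted p = 0.254, 0.0755 and 0.127). Of 9 endothelial markers Tie1, Esam and Cdh5 fell, all 9 were below 0 and the median was -0.26, and of 9 fibroblast markers Pdgfra fell. Of 6 blood markers Cd74 fell and the erythroid genes Alas2 and Slc4a1 rose. Over all tested genes 2.43% were called lower and 1.14% higher. Cd74 passed in all 6 fits without 1 heart, Tie1 in 4, Slc4a1 in 2, Cdh5, Pdgfra and Alas2 in 1 each and Esam in 0. With the lung covariate Cd74 and Tie1 passed, and the others did not (0.104 to 0.172). Of the lung genes, the surfactant protein gene Sftpc read 3.10 to 3.31 in ETX hearts, against 8.12, 8.58 and 3.59 in PBS replicates 3, 9 and 12. Scgb1a1 read 2.0 to 2.21 in ETX hearts, against 8.63, 8.40 and 1.97 in the PBS hearts, so 2 of the PBS hearts carried lung transcripts. The log2 of the summed signal of the 12 lung markers was 7.41 to 7.47 in ETX and 7.32 to 11.3 in PBS. Of 10 tested lung markers 0 passed. PBS replicate 12, without these transcripts, had Mybpc3 at 10.73, the lowest of the 6 hearts, and without both lung-bearing hearts the difference of Mybpc3 was 0.35 (limma adjusted p = 0.231, with 1 PBS heart assumed to vary like the others). With the mean of the lung markers as a covariate the difference of Mybpc3 was 0.32 (limma adjusted p = 0.215), that of Myl7 1.18, that of Myl4 0.79, that of Mybphl 0.69 and that of Mylk3 -0.20, and none of the 10 members passed. The part of endothelial and blood transcripts in the members' differences was not tested.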

How the data were processed

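The deposited values are log2 signals that the authors made with Affymetrix Expression Console and RMA, per the submitters' processing notes. RMA removes background, gives all arrays 1 distribution and combines the probes of a cluster. No version or filter is stated in these notes. The table held 35556 transcript clusters, of which a platform annotation gave 1 gene to 21789 and several to 1621. Genes were read from single-gene clusters, the brightest where there were several (999 genes), and 14953 genes with a mean of at least the lower quartile (3.45) were tested.

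The test of ETX against PBS was limma 3.58.1 in R 4.3.3 (lmFit, eBayes, two-sided, Benjamini-Hochberg over all tested genes, threshold 0.05). Pairs of chains were compared with exact permutation tests. The members, gene lists, named genes (list members called, up to 6 a list, otherwise those with the smallest p, and fixed markers) and alternatives were chosen with earlier results of these data known. On data simulated for ETX against PBS over 14953 genes, 90% of 100 genes changed 1.5-fold and 98% of 100 changed 2-fold were recovered, with 12 false calls. The changed genes were drawn at random, and noise was independent between genes, with no tissue shared by them. These rates do not hold for genes as variable as Myl7, Myl4 and Mybphl. Promoter sequences are RefSeq's (all 10 members matched). The array annotation names no genome build, so no other coordinates are given. Figures used matplotlib 3.10.9. The p-values rest on the spread between hearts. Those of limma, and its intervals, also draw on the variances of all tested genes. This widens the intervals of steady genes such as Myl2. It narrows those of genes as variable as Myl7, Myl4 and Mybphl, whose own spread alone would give wider ones.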

Additional observations from a re-analysis of the deposited data

How the results depend on the processing

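The count of 533 genes called over all tested genes was 909 with genes under the median of gene means left out, 957 with limma's trended and robust prior, 323 with the atrial-marker score and 80 with the lung-marker score as a covariate, 19 without both PBS hearts with lung transcripts, and 94 to 241 without 1 heart. The other alternatives (no filter, array weights, centring, quantile normalization, mean of clusters) gave 392 to 584. Of the members 0 were called in 15 of 16 alternatives and 1, Mybpc3, with the trended and robust prior. The sign of Myl2 turned without ETX replicate 7 (0.0078; without 1 heart -0.050 to 0.0078). That of Myl3 turned with quantile normalization (0.0014), the lung-marker score (0.033), without both PBS hearts with lung transcripts (0.037) and without ETX replicate 7 (0.00014), ETX replicate 10 (0.022) or PBS replicate 9 (0.0076; without 1 heart -0.069 to 0.022). Myh7 minus Myh6 ran from -0.047 to 0.036 without 1 heart, turned in 2 of these fits, and was 0.0075 without both PBS hearts with lung transcripts. The cause was not tested, beyond the smaller number of hearts in fits that leave one out. Myl7 minus Myl2 (0.73 to 2.09) and Myl4 minus Myl3 (0.32 to 1.66) kept their direction without 1 heart, as did the other 8 members in all 16 alternatives. No paired analysis was possible because the groups share no replicate number. The fits of named genes outside the members under these alternatives were added later, after seeing the data fitted here; a gene that belongs to a marker score was not fitted with that score. Signals of Myl2 and Myh6 near the top of the array range limit what can be seen of them. The same holds for Myh7, little above the array medians, and for Mir499 and Bmp10 near the bottom.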
